A study of Drosophila melanogaster with 6 samples.

Results

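Neprilysins are zinc metallopeptidases of the M13 family. Most sit in the plasma membrane with their catalytic part outside the cell, where they cut short signalling peptides and so end their action, and in mammals neprilysin is known for degrading tachykinins, natriuretic peptides and amyloid beta. Flies carry a much enlarged family, the classical neprilysins (Nep genes) and a larger set of neprilysin-like genes (Nepl genes), many of whose proteins lack residues that catalysis needs. Fly Nep genes have been linked to fertility, to memory and, for Nep4, to muscle function and the control of insulin-like signalling.

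The 6 genes described here are Nepl19, Nepl20, Nep1, Nep2, Nep3 and Nep4. They were taken as all probe sets whose platform annotation gives 1 gene symbol equal to one of these names, which found 6 probe sets, 1 for each gene, among 18769 probe sets and 11982 genes. The group was chosen by the fall of Nepl19 and Nepl20 after ROW RNAi in these same arrays, so the levels of those genes in the comparison are given as a description, with no test. The cells were S2, a line derived from fly embryos that resembles blood cells. Affymetrix Drosophila Genome 2.0 arrays measured the total RNA of 3 samples labelled wild type and 3 in which ROW, a zinc finger protein found together with the chromatin protein HP1c, was depleted by soaking the cells in double-stranded RNA for 96 h. The labels call the controls wild type and name no sham double-stranded RNA, but carry the same treatment text on every sample, so whether the controls were soaked is unclear, and depletion of ROW and exposure to double-stranded RNA as such cannot be told apart. The labels do not tie the 3 arrays of a group to separate cultures, and p-values therefore cover the spread between arrays, which may be technical. In a bulk sample, fewer cells that make a transcript and less transcript per cell cannot be told apart.

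Values are RMA signals on the log2 scale, called levels below, and a fold change is the ROW RNAi mean minus the control mean. Changes were tested with limma and adjusted over all 18769 probe sets, with an adjusted p under 0.05 as the threshold. A level of 3.39, the 95th percentile of 17 tag control probe sets, served as the background level. Pairs of arrays correlated at 0.987 to 0.998 across probe sets, and the first principal component, with 66.9% of the variance, set ROW RNAi replicates 1 and 3 (scores 42.7 and 20.8) apart from the other arrays (−26.5 to −3.69). Within each group the score was highest on replicate 1 and lowest on replicate 2. It was −3.69, −26.5 and −13.7 on control replicates 1, 2 and 3, and −19.5 on ROW RNAi replicate 2. All 12 plasmatocyte and S2 markers lay above background on all 6 arrays, srp, Hml and Pxn included, with mean levels of 10.66 to 10.73 in control and 10.65 to 10.71 after ROW RNAi. Past the threshold were 2 of the 12, Sr-CI higher and He lower, beside 1.16% of all probe sets. The ROW RNAi arrays lay wholly below the control arrays in 5 of the 12 and wholly above in 3, beside 14.4% and 7.00% of all probe sets. Single markers thus moved in both directions while the list means stayed close. Of the markers of other cell types, 3 of 4 measured for neurons (elav, nSyb and brp), 1 of 3 for fat body (Yp1), 2 of 3 for germline and 0 of 3 for muscle lay above background on all 6 arrays, and Lsp2 of fat body, Act88F of muscle and Syn of neurons on 0 arrays. Each of these 4 other lists overlapped between the groups in mean level and had 0 genes past the threshold, and the part of such signals in the results below was not tested. The targeted transcript itself was lower in all 3 ROW RNAi arrays: the brightest row probe set had levels of 10.44, 10.60 and 10.54 in control and 9.04, 8.91 and 8.91 after ROW RNAi, so the log2 fold change was −1.58 with an SE of 0.07 (limma adjusted p = 0.0023) and 33.5% of the control signal was left. Its other probe sets fell further, with log2 fold changes of −2.61 (SE 0.10, limma adjusted p = 0.0018) and −2.66 (SE 0.09, limma adjusted p = 0.0017), leaving 16.4% and 15.9%.

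Nepl20 was a bright gene in S2 cells and among the genes whose signal was most reduced after ROW RNAi. It stood at 11.34, 11.31 and 11.30 without RNAi and at 9.71, 9.61 and 9.65 after ROW RNAi. The groups were far apart, with 1.59 log2 units between the lowest control array and the highest ROW RNAi array, and the arrays within a group lay close together (SD 0.02 in control and 0.05 after ROW RNAi, n = 3 arrays each). The log2 fold change was −1.66 (SE 0.05), which left 31.7% of the control signal, and 6 of the 18769 probe sets fell further. Without 1 array in turn the log2 fold change lay between −1.69 and −1.64.

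Nepl19, the gene next to Nepl20, was also lower, by a smaller step and with a wider spread within groups (SD 0.03 in control and 0.09 after ROW RNAi, n = 3 arrays each). Its levels were 11.46, 11.44 and 11.50 in control and 10.66, 10.68 and 10.51 after ROW RNAi. The groups did not overlap, with a gap of 0.76 between them. The log2 fold change was −0.85 (SE 0.06), or 55.7% of the control signal, and 56 probe sets fell further. Leaving out 1 array in turn gave log2 fold changes between −0.88 and −0.79.

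The neighbouring genes thus changed by unequal amounts. Within an array, the level of Nepl20 minus that of Nepl19 was −0.12, −0.12 and −0.20 in control and −0.96, −1.07 and −0.86 after ROW RNAi. The means were −0.15 ± 0.05 (SD, n = 3) and −0.96 ± 0.10 (SD, n = 3), so the fall of Nepl20 exceeded that of Nepl19 by 0.81 on the log2 scale in a comparison that both genes were chosen on. Both probe sets carry the plain suffix that Affymetrix gives to sets designed for a single transcript. The probe sequences were not used here, so signal shared between these related genes was not tested.

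**Figure D1:**
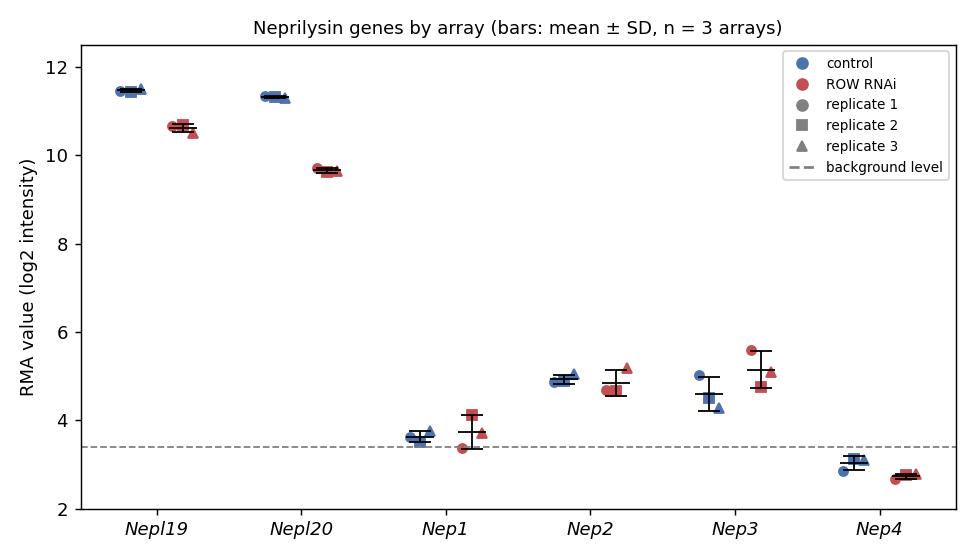
Levels of the 6 neprilysin genes on the 6 arrays (vertical axis, RMA value on the log2 scale), with control arrays in blue and ROW RNAi arrays in red, a marker shape for each replicate number, and bars for the mean ± SD of 3 arrays. Nepl19 and Nepl20 are bright and drop without overlap (11.46 to 10.62 and 11.31 to 9.65 on average), while Nep1 to Nep4 lie near or below 5.6 and the dashed line marks the background level of 3.39.

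None of the classical neprilysins Nep1 to Nep4 passed the test, and all of them gave dim signals. In Drosophila, Nep2 is known as a peptidase of the renal tubules and testis. Its levels were 4.86, 4.88 and 5.05 in control and 4.69, 4.65 and 5.17 after ROW RNAi, above background on all 6 arrays and overlapping between the groups. The difference was −0.09 on the log2 scale (SE 0.15, 95% interval −0.47 to 0.29, limma adjusted p = 0.80).

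Nep3 had the widest spread of the 6 genes. Its levels were 5.03, 4.51 and 4.27 in control and 5.59, 4.75 and 5.10 after ROW RNAi, above background on all 6 arrays. ROW RNAi replicate 2 lay inside the control range and the other ROW RNAi arrays lay above it. The log2 fold change was 0.54 (SE 0.28, 95% interval −0.15 to 1.24, limma adjusted p = 0.45), so neither no change nor a doubling lies outside the interval. The ROW RNAi arrays with the highest Nep3 levels, replicates 1 and 3, are those that the first principal component set apart, and the part of that difference in Nep3 was not tested.

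Nep1 stayed close to background. Its levels were 3.62, 3.52 and 3.76 in control and 3.37, 4.12 and 3.71 after ROW RNAi, above background on 5 of 6 arrays, and the ROW RNAi arrays spanned the whole control range. This gave a log2 fold change of 0.10 (SE 0.20, 95% interval −0.38 to 0.59, limma adjusted p = 0.83), and it was −0.09 without ROW RNAi replicate 2, the array with the highest level.

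Nep4, whose product in flies is known to cleave several neuropeptides, was above background on 0 of 6 arrays. Its levels were 2.85, 3.13 and 3.10 in control and 2.67, 2.76 and 2.77 after ROW RNAi. The ROW RNAi values were the lower ones without overlap, but since both groups lay under the background level no fold is given (limma adjusted p = 0.25). The names of the Nep1 and Nep4 probe sets carry the suffix for sets whose probes match more than 1 transcript, so their signals may be shared. Of the 6 genes, 3 (Nepl19, Nepl20 and Nep4) had ROW RNAi arrays that all lay below the control arrays, where 14.4% of all probe sets did, and 2 were past the threshold and lower, where 0.757% of all probe sets were. Both counts include the genes chosen on this comparison, and nothing is read from them.

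Nepl19 and Nepl20 belong to a run of 5 neprilysin-like genes that follow each other on chromosome arm 3R in the reference gene table, in the order Nepl17, Nepl18, Nepl19, Nepl20 and Nepl21. The members of the run did not move together. Nepl21, on the other side of Nepl20, was higher after ROW RNAi, with levels of 8.99, 9.04 and 9.10 in control and 9.52, 9.45 and 9.43 after ROW RNAi. All 3 ROW RNAi arrays exceeded all 3 control arrays, by at least 0.33. The log2 fold change was 0.42 (SE 0.05, limma adjusted p = 0.035), a 1.34-fold rise.

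The size of the Nepl21 change was steady and its call was not. The log2 fold change stayed between 0.37 and 0.45 in every alternative run. Nepl21 no longer passed with an unmoderated test (adjusted p = 0.056) or with median centring (0.17). Nor did it pass with the replicate number as a block (0.17), where 0 of all probe sets passed. The call was also lost without control replicate 1, 2 or 3 (0.17, 0.19 and 0.13) or ROW RNAi replicate 1 or 3 (0.12 and 0.13). It still passed without ROW RNAi replicate 2 (0.046). Over all alternatives its adjusted p ran from 0.0018 to 0.19.

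Nepl17 and Nepl18 were at the background level. Nepl17 had levels of 2.93, 3.08 and 2.92 in control and 2.66, 3.68 and 2.83 after ROW RNAi, and exceeded background on 1 array, ROW RNAi replicate 2. Nepl18 had levels of 3.29, 3.39 and 3.57 in control and 3.22, 3.41 and 3.42 after ROW RNAi. Both overlapped between groups, with log2 fold changes of 0.08 (SE 0.27) and −0.07 (SE 0.10) and limma adjusted p-values of 0.91 and 0.76.

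All 5 genes of the run lie inside the interval of another gene, CG33203, in the reference table. CG33203 overlapped between groups, at 4.62, 4.84 and 5.12 in control and 4.39, 5.24 and 5.01 after ROW RNAi (log2 fold change 0.02, SE 0.24, 95% interval −0.59 to 0.63, limma adjusted p = 0.98). Doa, which encodes a LAMMER kinase and follows Nepl21, had levels of 12.02, 12.08 and 12.13 in control and 12.10, 12.08 and 12.01 after ROW RNAi on its brightest probe set. Its log2 fold change was −0.01 (SE 0.05, 95% interval −0.14 to 0.13, limma adjusted p = 0.96). Its other probe sets gave −0.17 and −0.15 and did not pass either. The table gives no strand for these genes, and signal that overlapping genes may share was not tested.

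**Figure D2:**
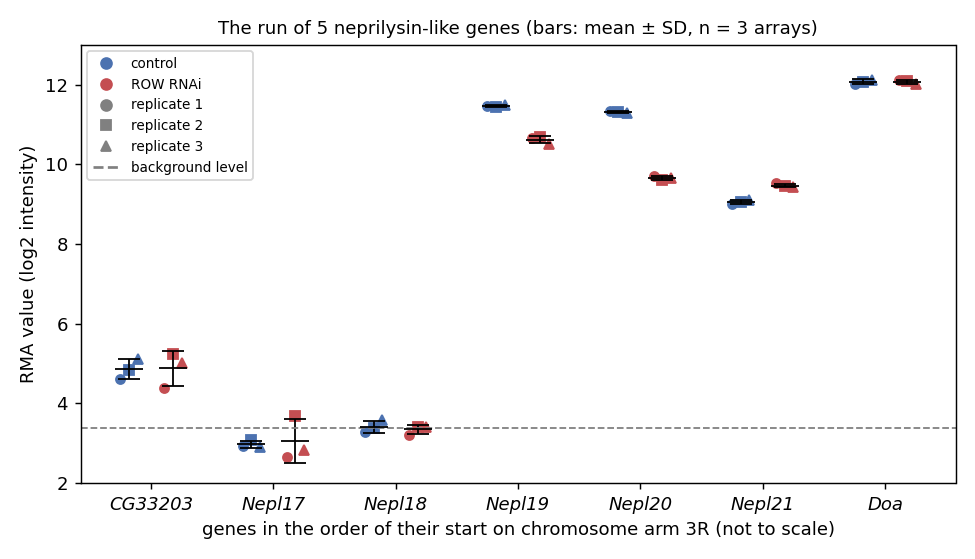
Levels (vertical axis, RMA value on the log2 scale) of the 5 neprilysin-like genes of the run on chromosome arm 3R, of CG33203, whose interval holds them, and of the following gene Doa, in the order of their starts and not to scale. Control arrays are blue, ROW RNAi arrays red, bars give the mean ± SD of 3 arrays and the dashed line is the background level. Nepl19 and Nepl20 are lower after ROW RNAi, Nepl21 is higher (9.05 to 9.47 on average), and the others overlap between groups.

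Counted over the 3 protein-coding genes on each side of every one of the 6 genes, 30 neighbours were listed and 25 measured. Nepl21 was the 1 neighbour past the threshold, against 1.16% of all probe sets in either direction. The median log2 fold change of the neighbours was −0.07, beside −0.03 over all probe sets. Without ROW RNAi replicate 2 the number past the threshold was 5, where 517 of all probe sets passed. CG11828, CG32750, CG4660 and CG9570 were then lower beside Nepl21 higher. CG9570 lay above background on 0 arrays, CG32750 on 4 and CG4660 on 6. CG11828 lies 3 genes from Nepl20, and its levels were 2.59, 2.74 and 2.67 in control and 2.17, 2.53 and 2.21 after ROW RNAi, under the background level on all 6 arrays.

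The neprilysin family as a whole held 28 genes by current or older symbol (Nep1 to Nep7 and the Nepl genes, with frma and goe for Nepl1 and Nepl2), and each was measured, Nepl11 by 2 probe sets. They lay on 3R (15 genes), 2L (7), X (5) and 2R (1). On their brightest probe sets 16 genes were above background on all 6 arrays, 6 on some arrays and 6 on 0 arrays. Among the first 16, Nepl3, Nepl19, Nepl20 and Nepl21 had levels above 8.9 on every array, and the other 12 stayed under 6.3.

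Beyond Nepl19 and Nepl20, 0 of the other 26 family genes were lower past the threshold in limma and 1, Nepl21, was higher, where 0.405% of all probe sets were. At an unadjusted p under 0.05 there were 5 of these 26 genes, against 2590 of all 18769 probe sets. Their median log2 fold change was −0.03, equal to that of all probe sets at this rounding. The ROW RNAi arrays lay wholly below the control arrays in 4 of the 26, where 14.4% of all probe sets did, a share near that of the 4. They lay wholly above in 1, Nepl21, where 7.00% of all probe sets did.

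The 4 that lay wholly below were Nep4, described above, and Nepl3, Nepl10 and goe. Nepl3 had levels of 10.31, 10.32 and 10.31 in control and 10.14, 10.12 and 10.07 after ROW RNAi, a small and tight difference of −0.20 (SE 0.05, limma adjusted p = 0.14). It passed with a trended and robust variance (adjusted p = 0.020) and when dim probe sets were left out (mean above the median, 0.028). Over all its alternatives the adjusted p ran from 0.020 to 0.43. Nepl10 had levels of 6.16, 6.22 and 6.29 in control and 5.64, 5.87 and 5.99 after ROW RNAi (log2 fold change −0.39, SE 0.10, limma adjusted p = 0.19).

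The gene goe (gone early) encodes a neprilysin-like protein. Its levels were 4.97, 4.89 and 4.95 in control and 4.69, 4.74 and 4.51 after ROW RNAi, with a gap of 0.14 between the groups (log2 fold change −0.29, SE 0.08, limma adjusted p = 0.20). The 95% intervals of these differences were −0.32 to −0.09 for Nepl3, −0.63 to −0.14 for Nepl10 and −0.48 to −0.10 for goe, before any adjustment for the number of probe sets.

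**Figure D3:**
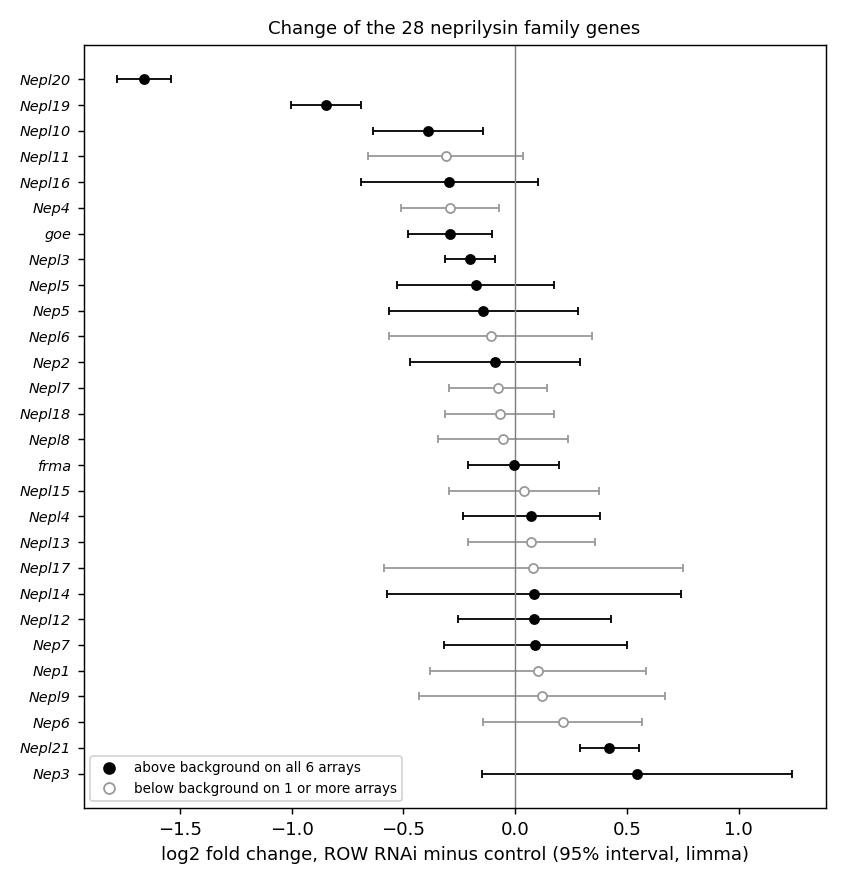
Log2 fold change of each of the 28 neprilysin family genes on its brightest probe set (horizontal axis, ROW RNAi minus control, with the 95% interval of limma), ordered from the most negative at the top. Filled points are genes above background on all 6 arrays and open grey points the rest. Nepl20 and Nepl19 lie at −1.66 and −0.85, Nepl21 at 0.42, and the intervals of most other genes cross 0.

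The remaining 16 family genes did not pass, with fitted log2 differences between −0.31 (Nepl11) and 0.21 (Nep6) and limma adjusted p-values between 0.40 and 0.98. They included Nep5, at 5.21, 5.23 and 5.07 in control and 4.66, 5.31 and 5.11 after ROW RNAi, and Nep7, at 5.74, 5.75 and 5.49 and then 5.42, 6.01 and 5.81. Both overlapped between the groups. On its dimmer probe set Nepl11 gave 0.12 in place of −0.31, and both sets were near or under the background level. The other runs of neighbouring family genes, Nepl5 with Nepl6 and Nepl13 with Nepl14 and Nepl15, had 0 genes past the threshold and log2 differences between −0.18 and 0.08.

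The dim members of the family had several of their highest and lowest arrays in common. Of the 10 family genes whose mean lay under the background level, 5 had their highest value on ROW RNAi replicate 2, and 6 had their lowest on ROW RNAi replicate 1. The mean of these 10 genes was 2.88, 3.04 and 2.98 in control and 2.79, 3.09 and 2.83 after ROW RNAi. The tag controls had medians of 2.64, 2.84 and 2.82 in control and 2.34, 2.91 and 2.54 after ROW RNAi, highest and lowest on the same arrays. The part of this in the values of single dim genes was not tested.

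The genes whose profile over the 6 arrays came closest to those of Nepl20 and Nepl19 were spread over the chromosomes. Likeness was the root mean square difference between levels after centring each gene on its own mean, over 6 arrays and 11981 other genes, and 6 arrays in 2 groups make this mostly a match in the size of the change. Closest to Nepl20 was row on its brightest probe set, at a difference of 0.070, although its other probe sets fell further (−2.61 and −2.66). It was followed by CG15820 (0.096), CG15209 (0.12), CG4793 (0.16) and the transmembrane receptor gene otk (0.19). Their log2 fold changes ran from −1.74 to −1.34.

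Closest to Nepl19 were Pgm1, which encodes a phosphoglucomutase of glycogen metabolism (0.032), HisT (0.055), the perilipin gene Lsd-1 (0.081), mdu (0.082) and CG7149 (0.089), with log2 fold changes from −0.99 to −0.79. Of these 10 genes, Lsd-1 lies on 3R, the arm of the run. Nepl19 ranked 39th in likeness to Nepl20, at a difference of 0.41. At the same difference Nepl20 ranked 5324th of 11981 genes in likeness to Nepl19. Both ranks follow mostly from the sizes of the 2 falls, on which the genes were chosen, so nothing is read from them.

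**Figure D4:**
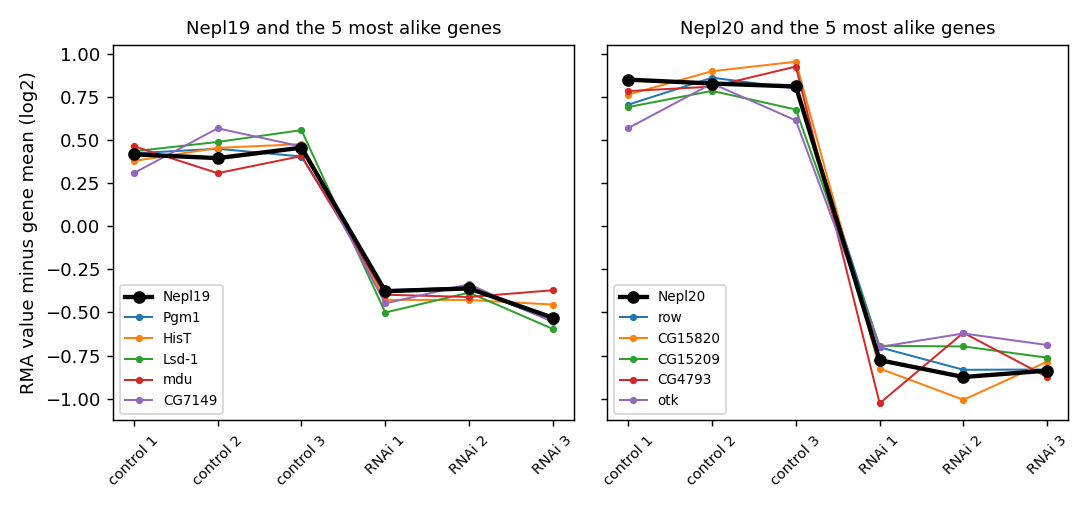
Levels centred on each gene's own mean (vertical axis, log2) on the 6 arrays (horizontal axis) for Nepl19 and Nepl20, in black, and for the 5 genes most alike to each, in colour. Every line steps down between the control and ROW RNAi arrays, with log2 fold changes of −0.99 to −0.79 for the genes beside Nepl19 and of −1.74 to −1.34 for those beside Nepl20.

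Other genes that act on signalling peptides mostly did not pass. Among other peptide-degrading peptidases, such as the angiotensin-converting enzyme relatives Ance and Acer and the insulin-degrading enzyme gene Ide, 16 were listed and 13 measured, and 0 changed in limma, beside 1.16% of all probe sets, while 3 of the 13 had an unadjusted p under 0.05, beside 2590 of all 18769 probe sets. Their median log2 fold change was −0.03. The widest difference was that of Ance-3, with levels of 4.86, 4.02 and 4.50 in control and 5.80, 4.44 and 5.46 after ROW RNAi, which overlapped between groups (0.78, SE 0.40, limma adjusted p = 0.45). The dimmer Ance-3 probe set gave 0.01 (SE 0.10) and was above background on 0 arrays. Ance-5 and Dip-C passed with a trended and robust variance, at log2 fold changes of 0.32 and −0.27, and they and ome passed among probe sets above the median mean. The probe sets of ome differed in direction, with 0.33 on the brightest and −0.18, 0.58 and 0.10 on the others.

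Among other extracellular metallopeptidases, the matrix metalloproteinase, ADAM and tolloid genes with the inhibitor Timp, 12 of 13 were measured and 0 changed, beside 1.16% of all probe sets. An unadjusted p under 0.05 was found for 3 of the 12, beside 2590 of all 18769 probe sets, and the median log2 fold change was 0.00. On the brightest probe sets Invadolysin differed most, at 5.57, 5.96 and 5.91 in control and 5.35, 5.58 and 5.34 after ROW RNAi (−0.39, SE 0.13, limma adjusted p = 0.28). Timp gave 0.29 on its brightest probe set and 0.47 on its dimmer one (SE 0.14, limma adjusted p = 0.23). Mmp2 passed with a trended and robust variance (0.25). Kul, an ADAM gene, passed without ROW RNAi replicate 2 (−0.47), where 517 of all 18769 probe sets passed.

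Precursors of peptide hormones and neuropeptides, whose peptide products are of the class that neprilysins cut, held 34 measured genes of 45 listed. Nplp1, which encodes a neuropeptide precursor, was the 1 gene of 34 that changed, beside 1.16% of all probe sets. It had levels of 5.64, 5.56 and 5.71 in control and 4.44, 4.67 and 4.29 after ROW RNAi. The groups did not overlap and the log2 fold change was −1.17 (SE 0.11, limma adjusted p = 0.013). The call was lost with an unmoderated test (adjusted p = 0.060) and without any control replicate or ROW RNAi replicate 1 or 3 (0.055 to 0.099), and over all alternatives the adjusted p ran from 0.0016 to 0.099. The median over the 34 genes was −0.08, beside −0.03 over all probe sets. Without ROW RNAi replicate 2, AstC also passed as higher (1.63) and Pdf and Proc as lower (−0.44 and −0.40), where 517 of all probe sets passed.

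The genes that process such precursors, among them the convertases amon and Fur2 and the amidating enzyme gene Phm, had 6 of 7 measured and 0 changed, beside 1.16% of all probe sets, with 1 of the 6 at an unadjusted p under 0.05, beside 2590 of all 18769. That gene was amon, whose levels lay under background on all 6 arrays, at 3.21, 3.09 and 3.04 in control and 2.88, 3.03 and 2.78 after ROW RNAi. The median log2 fold change of the 6 was −0.04.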

How the data were processed

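Total RNA (25 ng per sample) was amplified isothermally and biotin-labelled, per the labels' protocols. The deposited values are log2 signals, 1 per probe set and array, which the authors obtained by RMA, per the submitters' processing notes. That method subtracts background, equalises the arrays by quantiles and summarises probes, so a shift of most transcripts would go unseen. The medians of the tested probe sets still differed between arrays. They were 4.94, 4.90 and 4.91 on control replicates 1, 2 and 3, and 5.04, 4.88 and 4.97 on ROW RNAi replicates 1, 2 and 3. Its version and the annotation's build are not given in the sources used here. The precision is limited by the number of arrays.

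Of 18952 probe sets, 183 Affymetrix controls were left out and the rest tested with no filter. Of these, 13647 had 1 gene symbol, 402 several and 4720 none. Symbols were updated by gene ID (13544 matched) against a reference gene table (Release 6 plus ISO1 MT), which also gave chromosome arms and neighbours. No coordinates or sequences are printed. For genes with several probe sets the brightest leads.

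Groups were compared with limma 3.58.1 (lmFit, eBayes, two-sided) in R 4.3.3, with Benjamini-Hochberg adjustment over all tested probe sets. The fit was tested on simulated data. Tables used Python 3.11.15 with pandas 2.3.3, and figures matplotlib 3.10.9. The genes and lists were chosen with earlier results of these data known. The rule for naming took the 6 members, row, the family, list members past the threshold or with the widest change, the nearest neighbours and the 5 most alike genes. Genes that passed under an alternative alone, and example genes of a list, were named after their values were seen. Alternatives were median centring, cyclic loess, a filter on dim probe sets, other variance models, the replicate number as a block, averaging the probe sets of each gene, and leaving out each array.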

Additional observations from a re-analysis of the deposited data

Results flagged for a closer look

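The 18 probe sets for transcripts spiked in at hybridization enter no comparison. Their mean was 11.94 on ROW RNAi replicate 2 and at most 11.46 on a control array, a difference of 0.48, and this signal above the level of the controls is what marked it. ROW RNAi replicates 1 and 3 stood at 11.40 and 11.43. Of the 10 family genes with a mean under the background level, 5 had their highest value on replicate 2, and the part of this array in them was not tested.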

How the results depend on the processing

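Nepl20 moved from −1.66 to −1.71 with median centring, and its other alternatives lay within 1 SD of the arrays, as all of those of Nepl19 did. The row fold stayed at −1.58 with the replicate number as a block, where its adjusted p was 0.056 (1.3e-06 to 0.056 over its alternatives), and it was −2.28 over the mean of its probe sets. That replicate block called 0 probe sets of 18769 and so 0 lower or higher family genes, 0 hormone precursors and 0 neighbours. Arrays sharing a number had deviations correlated at 0.48, 0.55 and −0.04, and the numbers were not taken to pair the samples. Of 218 changed probe sets, median centring left a count of 107 and the unmoderated test 122, while trended and robust variance gave 558 and probe sets above the median mean 575. Median centring and the unmoderated test each gave 0 higher family genes and 0 changed neighbours, and the latter 0 hormone precursors. Trended and robust variance and the filter each gave 1 lower family gene (Nepl3) besides Nepl19 and Nepl20, 1 extracellular metallopeptidase and 2 hormone precursors, with 2 and 3 other peptidases. Leaving out 1 array gave 24 to 517 changed probe sets, 1 to 2 lower family genes (Nepl20 alone without any 1 control), 0 to 1 higher, 0 to 5 neighbours, 0 to 4 hormone precursors and 0 to 1 extracellular metallopeptidases, the highest without ROW RNAi replicate 2. The lower family genes in these runs were Nepl19 and Nepl20, which were chosen on this comparison, so nothing is read from that count. CG33203 turned to −0.028 with median centring. With 1 array left out, signs turned within −0.16 to 0.26 for CG33203, −0.035 to 0.021 for Doa, −0.14 to 0.0084 for Nepl18, −0.092 to 0.28 for Nep1, −0.26 to 0.0014 for Nep2 and −0.23 to 0.28 for Nepl17. For counts that moved on all 6 arrays and all probe sets, the cause was not tested. Nep1 to Nep4 and the prohormone processing genes had 0 calls in all alternatives. The filter left out Nep1 to Nep4 and amon and so could not call them, and the replicate block called 0 probe sets of any kind. Dim signal limits 12 of 28 family genes, which were not above background on every array.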
